A study of Caenorhabditis elegans with 2 samples.

Results

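The DNA regions described here are candidate LIN-35 binding regions whose summit lay within 500 bp of the annotated start of a small nucleolar RNA (snoRNA) or small nuclear RNA (snRNA) gene, with no transfer RNA gene start within 500 bp. They were picked by position alone from the pooled candidate list on the nuclear chromosomes, and 267 of 29978 regions met the rule. It had taken in 269 regions before 2 were removed for a nearby tRNA start. The list came from ChIP-seq, in which DNA bound by a tagged protein is recovered with an antibody and sequenced, in whole young adults of the *Caenorhabditis elegans* strain YL402, age unknown, with males and females pooled. The strain is unc119(ed3)III and carries the insertion vrIs56, in which pPIE-1 is joined to LIN-35::GFP FLAG with the LIN-35 3'UTR and an unc-119 (+) copy. The *pie-1* promoter is active in the germline, so the tagged protein was not under the control of the *lin-35* promoter. There was 1 group of 2 libraries, biological replicates 2 and 3, which share genotype, stage and antibody, and no untagged strain is compared here.

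LIN-35 is the worm relative of the retinoblastoma protein and acts in the DREAM complex, which contacts DNA through E2F/DP proteins and through LIN-54, a protein that binds the CHR element. snRNAs are the RNA cores of the spliceosome, SL RNAs donate the spliced leader in trans-splicing, and snoRNAs guide the chemical modification and cleavage of ribosomal RNA. Most worm snoRNAs lie in introns of protein-coding genes, and a gene for a small RNA can therefore share its surroundings with the promoter of a host or of a neighbour.

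Short stretches of sequence show the letters that the results below refer to. The first set is the stretch upstream of small RNA genes whose regions were among the higher in signal, printed on the strand of the gene, with the letters CGGAACC, the variant spelled CGAAACC or the shorter run spelled TGTCGG in capitals. The genes *sls-2.8* and *sup-6* make an SL2 RNA and a U1 snRNA, and ZK994.7, F54F11.6 and C05H8.3 are snoRNA genes. All letters in this paragraph are from RefSeq's WBcel235 assembly, which is the ce11 build of the deposited lists.
sls-2.8, chrIII:12250399-12250428, plus strand: ccggCGGAACCcggcaaatgtccgtccaca
ZK994.7, chrV:8500492-8500521, plus strand: ttggCGAAACCcgactcaTGTCGGccactc
F54F11.6, chrII:13521235-13521264, plus strand: cacgCGGAACCcgcgaaatgtccgctgcgg
sup-6, chrII:12945001-12945030, minus strand: gcggCGGAACCcgccacaTGTCGGcacaca
C05H8.3, chrIII:5654003-5654032, minus strand: acggCGGAACCcgcgaggTGTCGGgagtct
The second set is from snoRNA genes with the tRNA-type promoter letters of box B, GTTCGANNC, upstream of the start, with those letters in capitals. Those of C51F7.3 are at -44, inside C51F7.4, another snoRNA gene on the same strand.
C51F7.3, chrV:12303653-12303682, plus strand: aggcttcgttgGTTCGACCCccgcgcgtag
Y43F8C.22, chrV:19643178-19643207, minus strand: acagcttccggGTTCGATTCccacccacgg
C05D2.15, chrIII:5602169-5602198, minus strand: acagtccacaaGTTCGACCCcgcttcatgg
The third set is the E2F-type letters closest to the summit in 4 regions past the authors' threshold, in capitals.
sls-2.8, chrIII:12250322-12250351, plus strand: aaatttgttttTTCGCGCgctgtgcaacca
F54E7.10, chrIII:5679061-5679090, plus strand: aaattcaaagcTTCCCGCgtgcaagtctcc
T03F7.8, chrV:11314242-11314271, plus strand: cccgagttcaaTTCCCGCctgtgatgcttt
F09G2.14, chrV:7196540-7196569, plus strand: cattcatttatTTGGCGCactaatttagtc

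The study called candidate regions on the pooled reads and on each replicate. It filtered the pooled list by the irreproducible discovery rate (IDR), a measure of how alike regions rank in replicates. Passing did not require a region in each replicate list, and 357 of 376 nuclear thresholded regions had one in both. The filtered list holds 396 regions, 376 of them on nuclear chromosomes, and they are the 396 highest in pooled signal. Signal is the authors' own value for each region, on a scale that the sources used here do not define, so it serves only to rank regions within 1 list. The pooled and replicate 3 lists hold 30000 regions each and the replicate 2 list 20291. Read depth is unknown here. Of the 267 regions, 266 were 296 bp wide with the summit at the middle. Intervals below are exact Clopper-Pearson 95% intervals, the limit given beside a count of 0 is 3 counts of the total, both cover counting error only, and regions that share a gene or a promoter are not independent.

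Regions near snoRNA and snRNA genes ranked higher in signal than candidate regions as a whole. Their median pooled signal was 10.5 with quartiles of 7.95 and 14.9, beside 9.05 with quartiles of 7.497 and 11.6 over all 29978 nuclear regions. The values ran from 6.36 to 64.0, so most of them lay well under the lowest thresholded signal of 29.96. Among the 1000 highest pooled regions were 33 of the 267, or 12.4% (8.66 to 16.9%), whereas 3.27% of all nuclear regions were. Past the IDR threshold were 11 of 267, or 4.12% (2.07 to 7.25%), and the background over all nuclear regions was 1.25%. Each replicate list gave the same order when its own 396 highest-ranked regions were counted. Replicate 2 had 9 of 181 such regions (4.97%, background 1.83%) and replicate 3 had 13 of 231 (5.63%, background 1.24%). Regions near tRNA starts also ranked higher than all regions. The 356 of them had a median pooled signal of 10.1, 7.87% among the 1000 highest and 1.69% past the threshold (0.621 to 3.63%). The differences are described and not tested, and the 3 lists share reads.

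**Figure D1:**
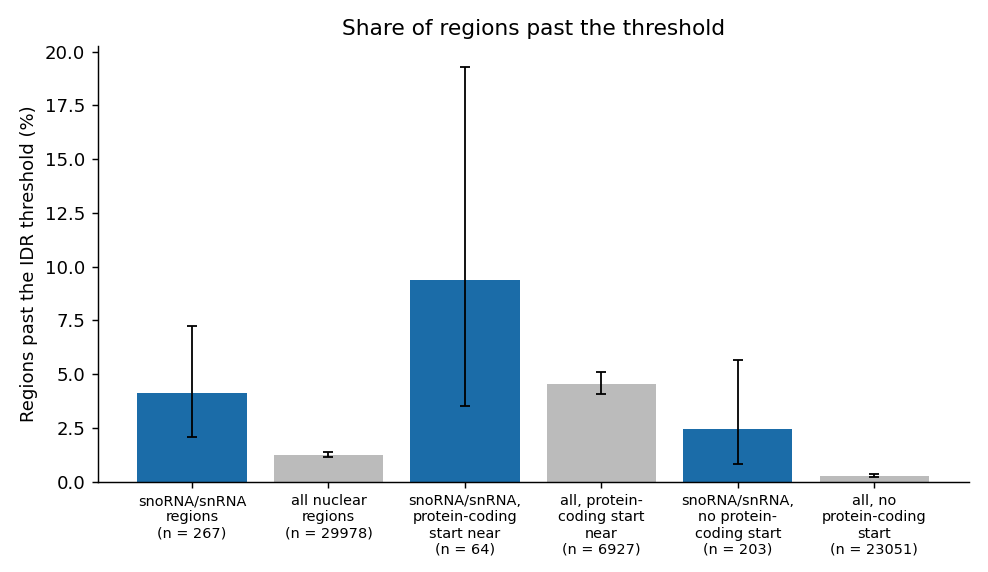
Share of regions past the IDR threshold (%) for regions near snoRNA or snRNA starts (blue) and for all nuclear candidate regions (grey), in all and split by whether a protein-coding start lay within 500 bp of the summit; error bars are exact 95% binomial intervals. The blue bars stand at 4.12, 9.38 and 2.46%, and the grey bars at 1.25, 4.56 and 0.260%.

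A protein-coding start lay within 500 bp of the summit in 64 of the 267 regions (24.0%), close to the 23.1% of all nuclear regions. Of these 64, 6 passed the threshold (9.38%, 3.52 to 19.3%), beside 4.56% of all regions with a protein-coding start. Of the 203 with no such start, 5 passed (2.46%, 0.804 to 5.65%), beside 60 of 23051 (0.260%). All 5 lay within 100 bp of the snoRNA or snRNA start. Of the 84 regions within 100 bp and without a protein-coding start, 5 passed (5.95%, 1.96 to 13.3%) and their median signal was 13.3. Of the 119 farther than 100 bp none passed, for which 3 counts would be a share of 2.52% (exact upper limit 3.05%), and the median signal was 9.36. Over all 267 regions the same split gave a median of 14.1 for the 109 close ones and 9.66 for the 158 farther ones. Near tRNA starts and without a protein-coding start, 5 of 301 regions passed (1.66%, 0.542 to 3.83%).

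**Figure D2:**
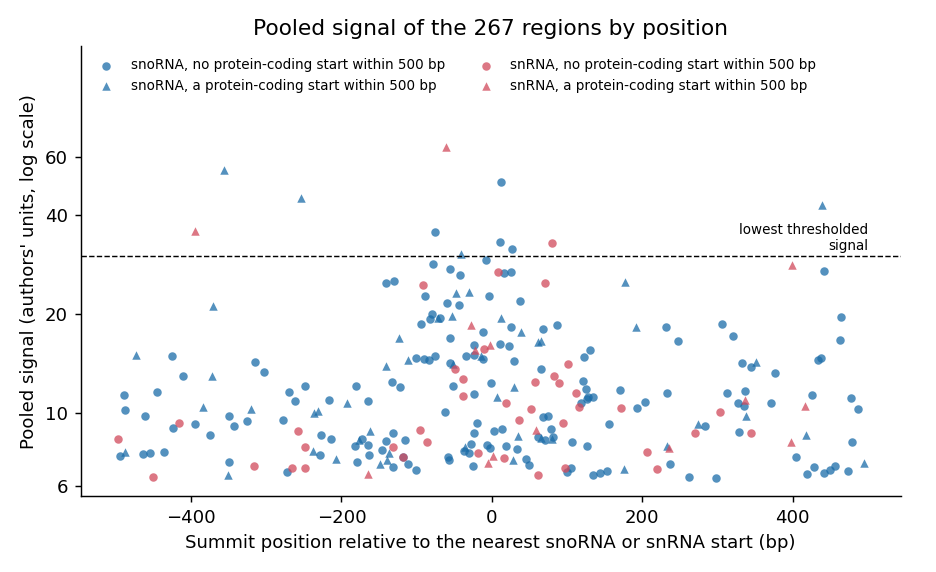
Pooled signal in the authors' units (log scale) of the 267 regions against summit position from the nearest snoRNA or snRNA start in bp, with colours for the kind of gene and triangles where a protein-coding start lay within 500 bp; the dashed line is the lowest thresholded signal. Regions above the line without a protein-coding start lie within 100 bp of the small RNA start.

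The 6 thresholded regions with a protein-coding start were led by the SL2 gene *sls-2.8*. Its region at chrIII:12250256-12250551 had a signal of 64.0 pooled, 47.4 in replicate 2 and 16.3 in replicate 3, and ranked 103, 56 and 475 in the respective lists. The summit was intergenic, 61 bp upstream of *sls-2.8*, and starts of *tim-1*, a gene of the timeless family, and of Y75B8A.23 lay within 500 bp. This is the highest of all regions near an snRNA gene, and it holds both the upstream letters and the E2F-type letters printed above. Another SL2 gene, *sls-2.4*, had a pair of thresholded regions. The one at chrI:4171664-4171959 had signals of 35.8 pooled, 19.5 in replicate 2 and 21.4 in replicate 3, with its summit 394 bp from *sls-2.4* and near the start of *egg-5*, a gene that acts at the oocyte-to-embryo transition. The other, at chrI:4172138-4172433, had 32.9, 20.1 and 13.3, with the summit inside *sls-2.4*, 80 bp from its start, and no protein-coding start nearby. Both were found in each replicate list.

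At 3 of the 6, the snoRNA lay inside a ribosomal protein gene and was read in the same direction. The region at Y24D9A.9, in *rpl-7A*, had signals of 54.7 pooled, 20.1 in replicate 2 and 28.0 in replicate 3, with its summit 356 bp from the snoRNA start and 74 bp from the *rpl-7A* start (chrIV:4390593-4390680). The SET domain gene *set-21* starts nearby too. The region at F54E7.10, in *rps-12*, had signals of 44.9, 24.8 and 23.7, with its summit 253 bp from the snoRNA start (chrIII:5678977-5679272) and near the starts of *rps-12* and of *ska-3*. The region at Y43B11AR.7, in *rps-4*, had 42.8, 11.4 and 25.6, with its summit 439 bp from the snoRNA start in a coding exon of Y43B11AR.3, whose start was 225 bp away (chrIV:7083343-7083638). In these 3 the summit lay 253 to 439 bp from the snoRNA, farther than in any thresholded region without a protein-coding start. The last of the 6, at F09G2.14 (chrV:7196473-7196768), had a signal of 30.4 pooled and 18.8 in replicate 2, and no region in the replicate 3 list overlapped it. Its summit was intergenic, 41 bp upstream of the snoRNA, near the starts of F09G2.2 and *attf-2*.

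Other snoRNA genes in ribosomal protein genes had regions too. Of 23 snoRNA genes inside one and read in the same direction, 17 had a candidate region near their start (73.9%, 51.6 to 89.8%), with a median best signal of 16.7. Without the 3 past the threshold 14 were left, with a median best signal of 12.2. Of 160 in other protein-coding genes on the same strand, 91 had one (56.9%, 48.8 to 64.7%), with a median best signal of 10.3. Past the threshold were 3 genes in each set. The grouping by host was made after the thresholded regions were seen, 3 of which lay in such hosts, so the counts describe these genes and no more.

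The 4 other thresholded regions with no protein-coding start were at snoRNA genes, and 3 of them were unequal between replicates. The region at ZK994.7, in an intron of the peroxidasin gene *pxn-1* (chrV:8500443-8500738), was the exception, with signals of 50.4 pooled, 21.9 in replicate 2 and 21.3 in replicate 3, and ranks of 207 and 236. Its summit lay inside the snoRNA, 12 bp from the start. At T03F7.8, in an intron of *cutl-18* (chrV:11314035-11314330), the signal was 35.4 pooled, 5.58 in replicate 2 and 28.6 in replicate 3, and the ranks were 5365 and 122. At C51F7.3, in an intron of *frm-7* (chrV:12303571-12303866), it was 33.0 pooled and 21.4 in replicate 3, and the replicate 2 list had no overlapping region. The start of another snoRNA gene, C51F7.4, was near the same summit. At F59C6.15, an intergenic snoRNA (chrI:10516975-10517270), the signal was 31.4 pooled and 11.7 in replicate 3, again with no region in replicate 2. The F59C6.15 region is also partly repeated, as 48.5% of its 31-base words occur once in the genome and the gene has 4 close relatives in a family of 5. T06C12.16, the next in order, had 29.1 pooled, 11.5 in replicate 2 and 15.8 in replicate 3 with its summit 8 bp from the start, and fell just short.

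**Figure D3:**
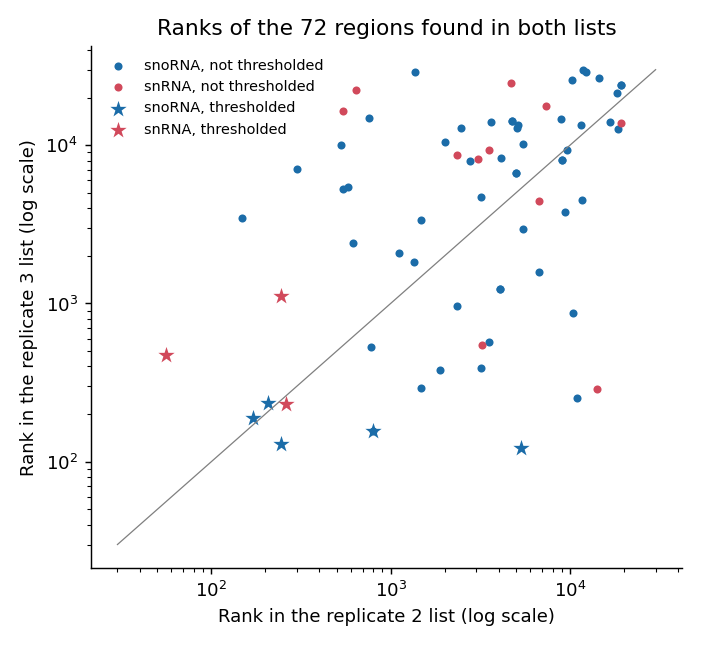
Rank in the replicate 3 list against rank in the replicate 2 list (both log scales, 1 is the highest) for the 72 regions with an overlapping region in both lists; stars passed the IDR threshold and the line marks equal ranks. The 8 stars include T03F7.8, at ranks 5365 and 122.

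An overlapping region was found in the replicate 2 list for 44.2% of the 267 regions, in the replicate 3 list for 67.0% and in both for 72, or 27.0% (21.7 to 32.7%). Over all nuclear regions the shares were 32.5, 61.2 and 15.02%. Neither list held a counterpart for 15.7% of the regions near small RNA genes and for 21.3% of all. Where found, the regions near small RNA genes had a median rank of 4073 in replicate 2 and 7474 in replicate 3, beside 7174 and 10345 for all. The thresholded ones were found in both lists in 8 of 11, whereas 357 of 376 nuclear thresholded regions were. Of the 72 found in both, 11 had ranks over 10-fold apart (15.3%), as had 11.8% of all such regions.

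Summits gathered close to the small RNA starts. The median distance was 132 bp with quartiles of 56.5 and 309.5 bp, and 60 summits lay inside the small RNA gene itself. Within 100 bp were 81 of 213 regions whose nearest gene was a snoRNA (38.0%) and 28 of 54 whose nearest was an snRNA (51.9%). The same share was 22.1% around protein-coding starts, 21.4% around microRNA starts, 47.2% around tRNA starts and 38.9% around piRNA starts, which are densely clustered. Upstream and downstream summits were about equal in number, with 140 of 267 upstream. By annotation 102 summits were intergenic, 98 intronic, 48 in coding exons and 19 in untranslated regions. The outermost regions inside the 500 bp limit were at *smy-8* (497 bp, signal 8.37), F25H2.15 (494 bp, 7.41) and R151.13 (494 bp, 7.06). The first outside were at F38E11.11 (505 bp, 8.83), Y11D7A.22 (507 bp, 12.9) and F08H9.10 (509 bp, 9.46).

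**Figure D4:**
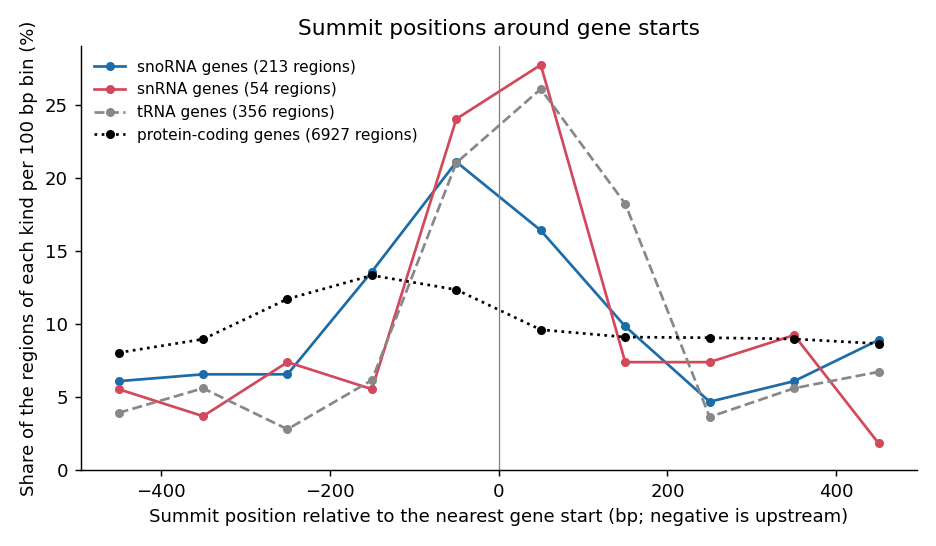
Share of candidate regions (%) per 100 bp bin of summit position from the nearest gene start in bp, for regions near snoRNA (blue), snRNA (red), tRNA (grey) and protein-coding (black) genes. The 2 bins next to the start hold 38.0% of regions near snoRNA and 51.9% of those near snRNA genes, against 22.1% for protein-coding genes.

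Seen from the genes, 242 of 475 nuclear snoRNA and snRNA genes had at least 1 of the 267 regions near their start (50.9%, 46.4 to 55.5%). snoRNA genes had one in 191 of 346 cases (55.2%) and snRNA genes in 51 of 129 (39.5%). For scale, 27.5% of nuclear bases, 34.4% of protein-coding starts, 22.4% of piRNA starts and 60.5% of tRNA starts lie within 500 bp of some candidate summit. A snoRNA gene inside a protein-coding gene on the same strand had a region in 108 of 183 cases, on the opposite strand in 19 of 33, and outside such genes in 64 of 130. A region past the threshold lay near 9 snoRNA genes (2.60%) and 2 snRNA genes (1.55%), close to the shares of protein-coding starts (2.04%) and tRNA starts (1.31%). By chromosome, X held 17 of the 267 regions (6.37%), beside 19.99% of all nuclear regions, while 36 of the 475 snoRNA and snRNA genes lie there (7.58%). None of the 17 passed, for which 3 counts would be a share of 17.6% (exact upper limit 19.5%), and over all X regions 9 of 5994 passed (0.150%).

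The snRNA families were covered unequally. Of the 18 *sls-2* genes, which encode SL2-type leaders used inside operons, 13 had a region (72.2%, 46.5 to 90.3%), with best signals from 6.53 to 64.0 and a median of 10.3. Below the threshold the highest of them was *sls-2.1*, with 26.9 pooled, 6.88 in replicate 2 and 15.6 in replicate 3 and its summit 8 bp from the start. None of the 12 *sls-1* genes had a region, for which 3 counts would be a share of 25% (exact upper limit 26.5%). They encode SL1 and lie in the tandem 5S ribosomal RNA cluster on chromosome V. Of these 12 genes 10 are equal in sequence and the other 2 equal each other, and the part of this in the count was not tested. In the family of 13 genes that includes *sup-39* and *sup-6*, both known as U1 snRNA genes from suppressors of splice-site mutations, 8 had a region. The highest was at *sup-6*, with 24.8 pooled, 12.4 in replicate 2 and 5.49 in replicate 3. Of 12 *smy* genes, not all of them annotated as snRNA genes, 4 had a region, with a best signal of 10.96 at *smy-4*. Their SmY RNAs associate with trans-splicing particles. In a family of 23 snRNA genes that includes B0205.15, 5 had one, the highest at F54D8.7 with 24.5.

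Identical gene copies went with fewer regions. Of 44 genes with at least 1 identical copy 11 had a region (25%, 13.2 to 40.3%), and of 431 without one 231 had (53.6%, 48.8 to 58.4%). All 44 are snRNA genes, whereas the 431 include the 346 snoRNA genes, and snRNA genes had regions less often (39.5% against 55.2%). The 44 also take in all 12 *sls-1* genes, which lie in a single cluster and had no region. The part of gene kind and of this cluster in the gap was not tested. In addition, 5.24% of the 267 regions had under 50% of their 31-base words unique in the genome, beside 0.457% of all nuclear regions. The share was 18.5% for regions near snRNA genes. How reads that map to several places were treated is not stated, and the part of repeats in these counts was not tested.

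Upstream promoter letters were frequent at these genes. snRNA genes of worms carry a proximal sequence element before the start, and on the gene's strand at positions -100 to -30 the letters CGGAACC stood before 32 of 129 snRNA genes, 20 of 346 snoRNA genes and 0.120% of protein-coding genes. Their median position was -61 before snRNA and -63 before snoRNA genes. The variant CGAAACC stood before 18 snRNA and 8 snoRNA genes and 0.305% of protein-coding genes, at medians of -62 and -61. TGTCGG stood before 42 snRNA and 32 snoRNA genes and 0.616% of protein-coding genes, at medians of -47 and -49. In all 32 genes with TGTCGG and 1 of the longer elements, their first letters were 14 bases apart, as in the ZK994.7, *sup-6* and C05H8.3 stretches above. With any of the 3 elements, 42 of 77 snRNA genes had a candidate region (54.5%, 42.8 to 65.9%). Without, 9 of 52 had (17.3%, 8.23 to 30.3%), a set that includes the 12 *sls-1* genes. An element stood before 20 of the 44 genes with identical copies (45.5%), beside 59.7% of all snRNA genes. The split is thus mixed with copy number, whose part was not tested. For snoRNA genes the counts were 22 of 43 with an element (51.2%) and 169 of 303 without (55.8%), so the split seen for snRNA genes was not seen there.

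Box B letters at positions -60 to 0 stood before 17 snoRNA genes, 21 protein-coding genes of 19973 and none of the 129 snRNA genes, for which 3 counts would be a share of 2.33%. Of the 17, 13 had a region (76.5%, 50.1 to 93.2%), and their median best signal was 18.7, beside 11.3 over all snoRNA genes with a region. They were led by C51F7.3 at 33.0, whose region is shared with C51F7.4. The next in signal among the printed ones was Y43F8C.22, with 22.7 pooled, 17.98 in replicate 2 and 8.56 in replicate 3. C05D2.15 had 21.3 pooled and 19.5 in replicate 3, with no region in replicate 2. The box B and upstream letters were picked after the sequences had been seen.

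**Figure D5:**
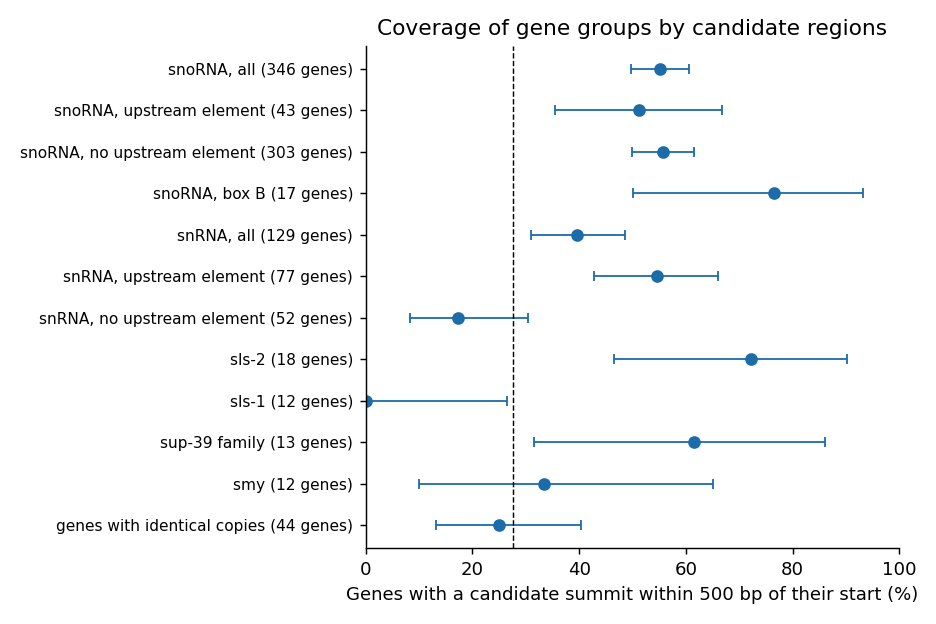
Share of genes (%) with a candidate summit within 500 bp of their start, for groups of snoRNA and snRNA genes; points are shares, bars are exact 95% binomial intervals and the dashed line is the 27.5% of nuclear bases within 500 bp of a summit. snRNA genes with an upstream element stand at 54.5% and those without at 17.3%, and identical copies were more frequent in the set without. No *sls-1* gene had a region.

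Over all 267 regions the share with E2F letters around the summit was near that of all candidate regions, and the share with CHR letters was lower. The E2F letters, taken as TTNNCGC with each N either C or G, on either strand and within 100 bp of the summit, were in 25 of the 267 regions (9.36%, 6.15 to 13.5%), beside 7.80% of all nuclear regions. With a protein-coding start nearby the share was 13 of 64 (20.3%, 11.3 to 32.2%), beside 10.5% of all such regions, and without one 12 of 203 (5.91%, 3.09 to 10.1%), beside 6.98%. CHR letters, TTCGAA or TTTGAA, were in 112 (41.9%, 36.0 to 48.1%), beside 52.3% of all. By spelling, TTCGAA was in 11.6% of the 267 regions (8.03 to 16.1%), near the 11.95% of all nuclear regions. TTTGAA was in 32.96% (27.4 to 38.95%), beside 46.01% of all, so the gap lay in that spelling. The GC content of the windows, given below, also differed, and its part in the gap was not tested. Among the 11 thresholded regions 5 had E2F letters and 7 had CHR letters, whereas 52.1% and 73.9% of the 376 nuclear thresholded regions had them. Of the 6 with a protein-coding start, 4 had E2F letters. Of the 5 without, the region at T03F7.8 alone did, in the stretch shown above, 73 bp from the summit. That run overlaps the letters GTTCAATTC, which are spelled like box B except for an A in place of the second G. That spelling was not searched.

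The letters found at small RNA promoters had higher shares here than over all regions. The regions were picked for lying near small RNA starts, and these letters were picked after the sequences upstream of such genes had been seen. Higher shares, and more so close to the start, are thus built into the position rule. The comparison cannot show whether LIN-35 regions favour these letters. CGGAACC within 100 bp of the summit, on either strand, was in 6.37% of the 267 regions (3.75 to 9.999%) and 1.24% of all nuclear regions. TGTCGG was in 12.7% (8.98 to 17.3%) and 5.70%, and box B letters, which can overlap TTCGAA and did so in 3 of the 16 regions that held them, in 5.99% (3.46 to 9.55%) and 2.04%. In the 109 regions within 100 bp of the start the shares were 12.8, 22.9 and 11.9%. Regions near tRNA genes held box B letters in 34.8%. TATAAA was in 19.9% of the 267 regions and 20.1% of all. The median GC content within 100 bp of the summit was 41.3% for the 267 and 36.8% for all, and 45.8% within 100 bp of the start, so the composition of the windows moved with these shares and its part was not tested. A match is a run of letters and does not show that a factor was bound.

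The proteins that act with these RNAs were read from 4 lists of 60 genes, of which 54 matched and 34 had a candidate region within 500 bp of their start. Of the 34, 6 had a region past the threshold, where the background over protein-coding genes with a candidate region was 5.95%. They were *snpc-3.4*, which encodes a subunit of the snRNA-activating complex, with a signal of 85.4 and ranks of 51 in replicate 2 and 70 in replicate 3. *dkc-1*, the snoRNA pseudouridine synthase, had 65.2 and ranks of 72 and 245, near a summit shared with *ran-1*. *smn-1*, which assembles Sm rings on snRNAs, had 63.4 and ranks of 89 and 198, near a summit shared with *klp-16*. *snr-6*, for an Sm protein, had 60.1 and ranks of 141 and 97. It is the neighbour of *pie-1*, whose promoter is in the transgene, and any part of the transgene in this signal was not tested. *nol-58*, for a box C/D snoRNP core protein, had 38.4 and ranks of 143 and 441, with *zip-4* starting nearby. *ints-4*, for a subunit of the Integrator complex that ends snRNA transcripts, had 30.9 and ranks of 198 and 17650. By list, 2 of 12 Sm and assembly genes with a candidate region, 0 of 5 LSm genes, 2 of 7 snoRNP genes and 2 of 10 transcription and processing genes passed. Below the threshold, *fib-1*, the box C/D methyltransferase fibrillarin, had 22.7 near a summit shared with *mut-15*, and no region in replicate 2. *ints-11*, the Integrator endonuclease, had 22.1 near a summit shared with *rpl-10L*, and none in replicate 3.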

How the data were processed

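GFP-tagged LIN-35 ChIP-seq of 2 libraries was read from the region lists that the authors deposited on ce11: a pooled list, a list for each replicate and the list kept by the IDR threshold, 396 regions. Per the file headers and columns, the authors gave each region a signal, a −log10 q-value and a summit offset. The −log10 column as deposited was the same for all thresholded regions and was not used. For the IDR cutoff, the read aligner and the caller with its control settings, no value was stated; a control and a fragment size range are named, per the labels. The ce10 lists were not used. Gene starts and biotypes came from the Ensembl 115 annotation of WBcel235, with RefSeq symbols. Members and lists were chosen with earlier results of these data known. Summits were set to 1-based positions, and regions in different lists were matched by overlap of at least 1 base. Named genes were all thresholded regions, the 12 highest, the highest of each RNA class, the 3 nearest regions on each side of 500 bp, and listed protein genes past the threshold. *fib-1* and *ints-11* fell outside this rule. The genes named for their printed sequence, for family or for box B were chosen after their values were seen. Families joined genes within 20% edit distance. Motifs were searched in 201-base windows. No test between groups was possible. Shares have exact Clopper-Pearson 95% intervals. Whether the replicates came from separate cultures is not stated beyond their biological replicate numbers. Alternatives used distances of 250 and 1000 bp, single replicate lists, other windows and unique regions. The distance search and the motif search were tested on simulated data. Tools were Python 3.11.15, pandas 2.3.3, scipy 1.17.1 and bedtools 2.31.1.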

Additional observations from a re-analysis of the deposited data

How the results depend on the processing

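No paired analysis was possible because there is a single group. Of 42 recomputed values, 25 stayed within the interval, spread or 1.5-fold range of the main value and 17 moved; the cause was not tested beyond what each setting changes by construction. With a distance of 1000 bp there were 429 regions, 66.1% of genes had one and 44.9% of the 267 regions had a protein-coding start. With 250 bp, 38.3% of genes had a region, 13.5% of the 267 had a protein-coding start, the median rank percentile was 29.5 instead of 33.2 and 3 instead of 6 listed protein genes passed. Taking the 198 highest regions left 1.498% past the threshold (all nuclear regions 0.594%). The share past it was 3.78% at 250 bp and 3.96% at 1000 bp. Regions in both replicate lists fell to 13.9% with summits within 100 bp and 17.2% with a reciprocal overlap of 50%, where all nuclear regions gave 7.45 and 9.65%. E2F letters were in 3.37% within 50 bp (all 4.45%) and 5.91% without protein-coding starts (all 6.98%), and CHR letters in 22.5% within 50 bp (all 31.0%) and 54.3% of whole regions (all 65.8%). Leaving out each replicate gave 181 to 231 regions, a median rank percentile of 30.7 to 34.0 and 32.6 to 46.1% of genes with a region. In place of the IDR threshold, the 396 highest-ranked regions of the list left were counted. These made up 4.97% of the 181 (all nuclear regions 1.83%) and 5.63% of the 231 (all 1.24%), and 4 to 6 listed protein genes had one. Added after seeing the data, regions with at least 50% unique words gave 3.95% past the threshold and 39.1% within 100 bp of the start, genes with no identical copy gave 53.6% with a region, and summits read without conversion gave 267 regions. The share past the threshold rests on 11 regions, and unknown depth limits what the lower ranks can show.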
